A study of Mus musculus with 10 samples.

Results

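The acute-phase response is the change in the plasma proteins that hepatocytes secrete during infection, injury or inflammation. Interleukin-6 (IL-6) binds its receptor *Il6ra* and the shared signal chain *Il6st* (gp130), which activate the transcription factor *Stat3*, and interleukin-1 adds to this through *Il1r1* and the C/EBP factors. The products include serum amyloid A, orosomucoids, haptoglobin, hemopexin, lipocalin-2 and fibrinogen, and *Socs3* is an inhibitor that the same pathway switches on. The genes described here are 33 acute-phase proteins and IL-6 regulators, chosen by name as known members of this response, out of 15126 genes in the table. All 33 were among the 11041 genes that averaged 1 CPM or more over the livers, where CPM is a gene's reads scaled to the library's total.

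The values come from RNA-seq of livers of 10-week-old male *db/db* mice, which lack a working leptin receptor and are obese and diabetic. The mice of the AAV8-Control group (n = 5 livers) had been infected for 5 weeks with adeno-associated virus 8 (AAV8), a vector that reaches hepatocytes, encoding eGFP. These livers therefore show the level of the response and its spread between livers in an obese, vector-treated liver, and no comparison between groups is made. The labels also name primary hepatocytes and an adenovirus, and they give neither the promoter of the vector nor a sequencing batch. Libraries held 19499795 to 35498596 reads. Hepatocyte genes dominated every library, at a summed level of 98895 CPM or more for 8 markers. As these are bulk samples, fewer cells of a type and less RNA per cell cannot be told apart.

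The acute-phase genes were abundant, and *Saa3*, *Saa2* and *Saa1* had the widest spread over the 5 livers, for *Saa2* and *Saa1* through 1 liver. The 33 members together took 1.94%, 2.29%, 2.06%, 2.37% and 2.02% of the reads in AAV8-Control replicates 1 to 5. Of these members 20 averaged 100 CPM or more, against 10.7% of all genes, on a scale that does not correct for length. The coefficient of variation (SD over mean) of these serum amyloids was 67.03%, 51.9% and 42.5%. Without AAV8-Control replicate 4 it was 50.4%, 28.4% and 23.3%, and *Serpina3k* (31.5%) and *Cebpb* (28.8%) then varied more than *Saa2* and *Saa1*. *Stat3* and *Orm1* had the narrowest spread over the 5 livers, at 5.61% and 5.76%, which for *Orm1* depended on the scaling, as given below. The narrowest was *Orm1* (3.20%) without replicate 1, *Il6ra* (5.41%) without replicate 3, *Il1r1* (4.38%) without replicate 4 and *Lbp* (5.89%) without replicate 5. The median over members was 15.6%, against 10.6% over all genes, and among genes of 100 CPM or more it was 11.2% for 20 members and 8.37% for 1184 genes. Without AAV8-Control replicate 3 it was 11.96% over members and 10.3% over all genes, so that the excess of the members was smaller.

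**Figure D1:**
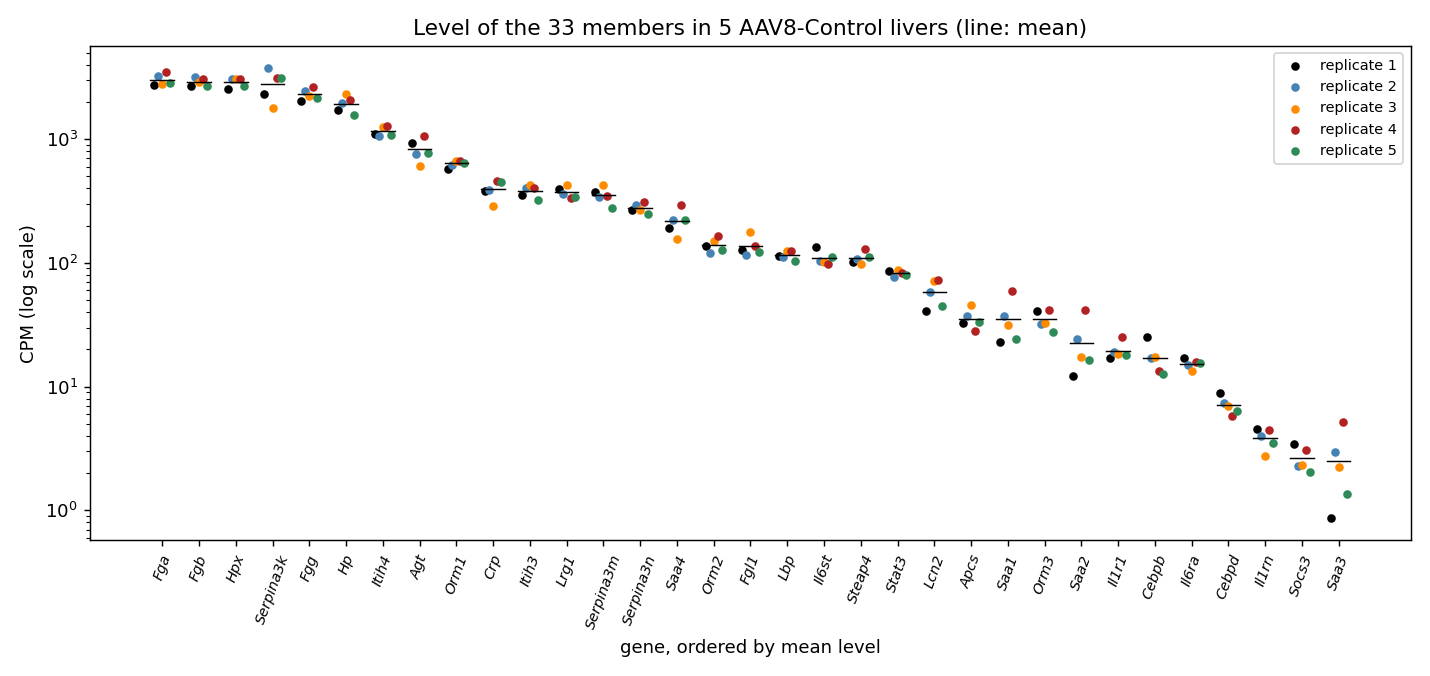
Level of the 33 members in CPM on a log axis, ordered by mean, with 1 coloured point for each of the 5 AAV8-Control livers and a line at the mean. Fibrinogen chains, *Hpx*, *Serpina3k*, *Hp* and *Itih4* lie above 1000 CPM in every liver, and the points of *Saa1*, *Saa2* and *Saa3* are the most spread, with replicate 4 on top.

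The serum amyloid A genes lie side by side on chromosome 7 of GRCm38 and encode apolipoproteins of high-density lipoprotein. *Saa1* and *Saa2* are the inducible hepatic forms, *Saa3* is made mostly outside hepatocytes, and *Saa4* is expressed constitutively. The 250 bases before the annotated start are shown for *Saa1* and *Saa2*, the pair of wide spread, for *Saa4*, their neighbour of higher level and lower spread, and for *Lcn2*. The starts are those of RefSeq and differ from the GENCODE extents given with the values, so that the *Lcn2* window lies inside its extent and the *Saa2* window ends inside it. Sequences are RefSeq promoters of GRCm38.p6 written 5′ to 3′ on the gene's own strand, and capitals mark matches to the C/EBP motif TTGCNNAA on either strand.
*Saa1* (chr7:46742981-46743230, reverse strand): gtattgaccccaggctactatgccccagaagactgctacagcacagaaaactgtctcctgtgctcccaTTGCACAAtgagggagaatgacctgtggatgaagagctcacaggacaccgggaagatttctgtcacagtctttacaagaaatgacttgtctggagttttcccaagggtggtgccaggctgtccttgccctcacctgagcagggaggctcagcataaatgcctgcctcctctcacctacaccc
*Saa2* (chr7:46751583-46751832, forward strand): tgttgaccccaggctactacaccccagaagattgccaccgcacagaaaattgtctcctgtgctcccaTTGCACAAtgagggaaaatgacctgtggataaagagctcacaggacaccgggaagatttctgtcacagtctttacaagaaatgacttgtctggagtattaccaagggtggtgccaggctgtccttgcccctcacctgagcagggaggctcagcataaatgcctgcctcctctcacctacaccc
*Saa4* (chr7:46732604-46732853, reverse strand): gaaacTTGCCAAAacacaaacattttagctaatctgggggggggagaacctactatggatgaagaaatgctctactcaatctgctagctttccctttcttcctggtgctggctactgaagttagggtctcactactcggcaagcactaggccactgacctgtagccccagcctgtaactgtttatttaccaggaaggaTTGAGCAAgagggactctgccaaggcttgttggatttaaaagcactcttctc
*Lcn2* (chr2:32387740-32387989, reverse strand): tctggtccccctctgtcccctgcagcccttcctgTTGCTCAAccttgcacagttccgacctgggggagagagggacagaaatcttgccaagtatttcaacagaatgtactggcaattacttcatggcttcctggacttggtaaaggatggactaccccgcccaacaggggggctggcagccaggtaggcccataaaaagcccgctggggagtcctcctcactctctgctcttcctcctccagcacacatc

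When aligned, the *Saa1* and *Saa2* stretches held 238 identical bases, and both carried TTGCACAA, which began at base -182 and -183 from the start. A C/EBP match was found in 12 of the 29 promoters listed for 26 members and in 9.57% of 32536 mouse promoters of the same length. The STAT3 motif TTCNNNGAA was in 7 of the 29 and in 7.04% of all promoters, among members in *Socs3*, *Itih4*, *Fga*, *Fgb*, *Apcs*, *Agt* and *Steap4*. No match to an NF-kB motif was in these windows, against 0.984% of all promoters, and TATAAA was in 5 of them, against 12.3%. In the 4 stretches shown none of the other motifs matched, so none overlapped. A match describes the letters, and binding was not measured.

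*Saa1* (ENSMUSG00000074115, reverse strand of chromosome 7 from 46740497 to 46742980) was at 23.03, 37.5, 31.2, 59.7 and 24.2 CPM in AAV8-Control replicates 1 to 5. Replicate 4 was the highest and replicates 1 and 5 the lowest, with a highest liver 2.59 times the lowest, or 1.63 times without replicate 4. The mean was 35.1 ± 14.9 CPM (SD, n = 5), from 449 to 1639 reads per library. Counting of reads alone would give a coefficient of variation of 3.34% at this depth, against the 42.5% observed.

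*Saa2* (ENSMUSG00000057465, forward strand of chromosome 7 from 46751790 to 46754313) was at 12.3, 24.4, 17.4, 41.8 and 16.5 CPM in replicates 1 to 5. The 5 livers stood in the same order as for *Saa1*, with replicate 4 highest and replicate 1 lowest, and the mean was 22.5 ± 11.7 CPM (SD, n = 5). Levels per kb of exon, here and below, use the joined length of all exons annotated to a gene. For *Saa1* this was 2478 bases, nearly its whole extent, so such levels and their ratios between genes depend on the annotation. Per kb of exon, *Saa2* was at 0.524, 0.639, 0.549, 0.689 and 0.673 times the level of *Saa1* in replicates 1 to 5. Their ratio thus varied less (12.1%) than either gene. The transcripts of *Saa1* and *Saa2* share 31.5% and 29.97% of their stretches of 50 bases with other genes, so the authors' counting of uniquely aligned reads may have split or dropped reads between them.

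*Saa3* was at 0.872, 2.99, 2.23, 5.18 and 1.35 CPM in replicates 1 to 5, once more with the livers in the order of *Saa1*. Its highest liver was 5.94 times the lowest, the largest such ratio of the 33, and 3.42 times without replicate 4 or 3.82 times without replicate 1. It rested on 17 to 142 reads per library, for which counting alone gives 12.3%. *Saa4* was at 190.1, 220.4, 157, 296 and 223 CPM, with a mean of 217 ± 51.5 CPM (SD, n = 5) and replicate 4 highest for it too. The coefficient of variation of *Saa4* was 23.7%, or 15.7% without replicate 4. Per kb of exon, *Saa1* was at 0.0916 to 0.171 times the level of *Saa4* in these livers.

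The orosomucoids are acid glycoproteins that bind drugs and lipids in plasma. *Orm1* ranged from 578 to 669 CPM, with a mean of 635 ± 36.6 CPM (SD, n = 5). *Orm2* ranged from 120.1 to 164 CPM and *Orm3* from 27.6 to 41.8 CPM, with coefficients of variation of 12.96% and 17.1%. Per kb of exon, *Orm1* was at 4.02 to 5.17 times the level of *Orm2*. The highest *Orm1* liver was 1.16 times the lowest, in livers in which this ratio was 2.59 for *Saa1* and 1.63 without replicate 4. After the scaling by TMM factors described below, this ratio was 1.25 for *Orm1*, against 1.21 for *Il6ra* and 2.83 for *Saa1*. *Orm1* and *Orm2* share 20.4% and 22.7% of their 50-base stretches with relatives, and the split of reads between them is uncertain.

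Among the members that bind heme, haemoglobin and iron, *Lcn2*, which binds bacterial siderophores, varied most. *Lcn2* (ENSMUSG00000026822, reverse strand of chromosome 2 from 32384633 to 32388252) was at 41.1, 58.1, 71.6, 72.4 and 44.9 CPM in replicates 1 to 5. Replicates 3 and 4 were highest and replicates 1 and 5 lowest, and the mean was 57.6 ± 14.6 CPM (SD, n = 5).

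*Hp*, haptoglobin, captures free haemoglobin and ranged from 1550.3 to 2319 CPM, highest in replicate 3 and lowest in replicate 5. *Hpx*, hemopexin, captures free heme and had the highest level per length of the 33 members, at 1923 ± 179 CPM per kb (SD, n = 5). It ranged from 2515 to 3083 CPM and was lowest in replicates 1 and 5. *Steap4*, a metalloreductase, ranged from 98.1 to 129 CPM.

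The 3 fibrinogen chains, which assemble into the clotting protein, were at 1000.2 (*Fga*), 759.98 (*Fgb*) and 1101 (*Fgg*) CPM per kb of exon and had similar orders of livers. *Fga* was at 2726, 3216, 2788, 3474 and 2849 CPM, *Fgb* at 2663, 3196, 2871, 3083 and 2664 CPM and *Fgg* at 2014, 2454, 2231, 2656 and 2164 CPM in replicates 1 to 5. For each chain replicates 2 and 4 were the highest livers and replicate 1 the lowest. Per kb of exon, *Fga* was at 0.869 to 0.941 times the level of *Fgg*, a ratio that varied by 2.86%, while these chains themselves varied by 10.7% and 10.98%. The ratios of *Fga* and *Fgg* to *Fgb* varied by 5.81% and 5.37%, and *Fgb* itself by 8.34%. *Fgl1*, a hepatocyte-secreted relative of fibrinogen, ranged from 116 to 176 CPM and was highest in replicate 3.

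Of the pentraxins, *Crp* ranged from 289.7 to 458 CPM, highest in replicate 4 and lowest in replicate 3. *Apcs*, serum amyloid P, had these livers the other way round, at 32.5, 36.9, 45.7, 28.2 and 33.2 CPM in replicates 1 to 5. *Lbp*, the lipopolysaccharide-binding protein, ranged from 104 to 125 CPM, and *Lrg1*, a leucine-rich glycoprotein, from 334 to 425 CPM. The sum of these 4 genes varied by 2.62% between livers, less than any of them alone (7.79% to 18.7%), and without replicate 3 *Crp* and *Apcs* varied by 9.93% and 10.9%.

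*Itih3* and *Itih4* encode heavy chains of the inter-alpha-trypsin inhibitor family. *Itih3* ranged from 322 to 426 CPM and *Itih4* from 1051 to 1285 CPM, with coefficients of variation of 11.04% and 9.06%. *Serpina3n*, an antichymotrypsin-like protease inhibitor, ranged from 250.1 to 311 CPM (8.63%). Its relative *Serpina3k* varied more, at 2300.2, 3722, 1784, 3101 and 3131 CPM in replicates 1 to 5, with replicate 2 highest and replicate 3 lowest. *Serpina3m* ranged from 278 to 426 CPM and was highest in replicate 3, where *Serpina3k* was lowest. The annotated extents of *Serpina3m* and *Serpina3k* overlap on chromosome 12, and they share 19.1% and 14.04% of their 50-base stretches with other genes. *Agt*, the precursor of angiotensin, was at 933, 757, 606, 1062 and 765 CPM, highest in replicate 4 and lowest in replicate 3 as *Saa4*, *Crp* and *Steap4* were.

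**Figure D2:**
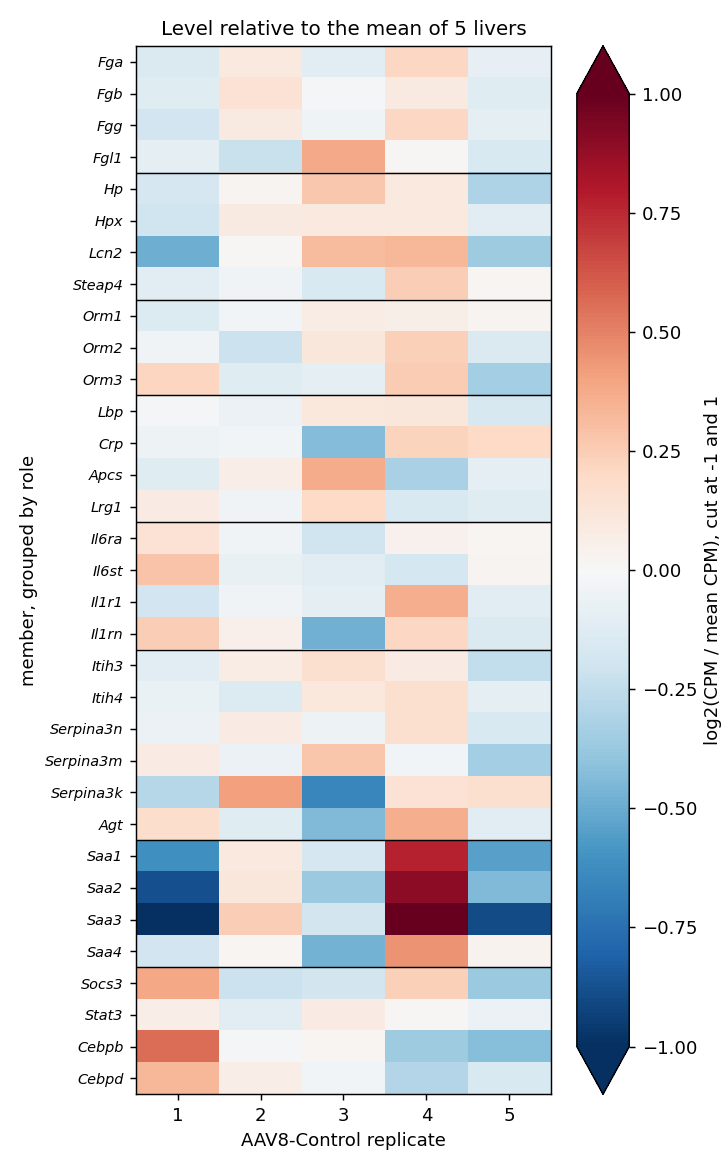
Level of each of the 33 members in each of the 5 AAV8-Control livers as log2 of the ratio to the mean of the livers, with rows grouped by role and the colour cut at 1 in either direction. Replicate 4 is red and replicate 1 blue for *Saa1*, *Saa2* and *Saa3*, while replicate 1 is red for *Cebpb*, *Cebpd* and *Socs3*.

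Per kb of exon, the 8 regulators averaged between 0.695 (*Il1rn*) and 11.4 (*Cebpb*) CPM per kb, and the 25 secreted and other effector members between 0.968 (*Saa3*) and 1923 (*Hpx*). *Il6ra* (ENSMUSG00000027947, reverse strand of chromosome 3 from 89864059 to 89913196) was at 16.97, 14.9, 13.4, 15.8 and 15.6 CPM in replicates 1 to 5, a mean of 15.3 ± 1.32 CPM (SD, n = 5). *Il6st* was at 134, 104, 102, 97.4 and 112 CPM, a mean of 109.9 ± 14.6 CPM (SD, n = 5). The coefficient of variation of *Il6ra* was 8.604%, or 5.41% without replicate 3, and that of *Il6st* was 13.3%, or 5.86% without replicate 1. Per kb of exon, *Il6st* was at 4.80 to 6.16 times the level of *Il6ra*.

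*Stat3* (ENSMUSG00000004040, reverse strand of chromosome 11 from 100885098 to 100939540) was at 86.6, 76.5, 87.3, 83.4 and 79.5 CPM in replicates 1 to 5. Its highest liver was 1.14 times the lowest, the smallest such ratio of the 33, in the same livers in which the highest *Saa1* level was 2.59 times the lowest, or 1.63 times without replicate 4. *Socs3*, the feedback inhibitor, was at 3.44, 2.26, 2.310, 3.098 and 2.03 CPM, with replicates 1 and 4 highest. Its coefficient of variation of 23.04% stood beside 12.4% from counting alone, as it rested on 42 to 85 reads per library.

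*Cebpb* and *Cebpd*, transcription factors of acute-phase promoters, did not have the order of livers of *Saa1*. *Cebpb* was at 25.2, 16.9, 17.4, 13.4 and 12.7 CPM and *Cebpd* at 8.87, 7.37, 6.93, 5.76 and 6.33 CPM in replicates 1 to 5, both highest in replicate 1, where *Saa1* was lowest. Without replicate 1 the coefficient of variation of *Cebpb* was 15.8%, against 28.9%. *Cebpb* shares 18.1% of its 50-base stretches with *Tmem189* and *Cebpd* 13.7% with *Spidr*. *Il1r1*, the interleukin-1 receptor, was at 17.1, 19.1, 18.2, 25.04 and 18.1 CPM, and its coefficient of variation of 16.2% was 4.38% without replicate 4. *Il1rn*, its antagonist, was at 4.56, 3.996, 2.76, 4.45 and 3.48 CPM, from 72 to 122 reads per library.

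**Figure D3:**
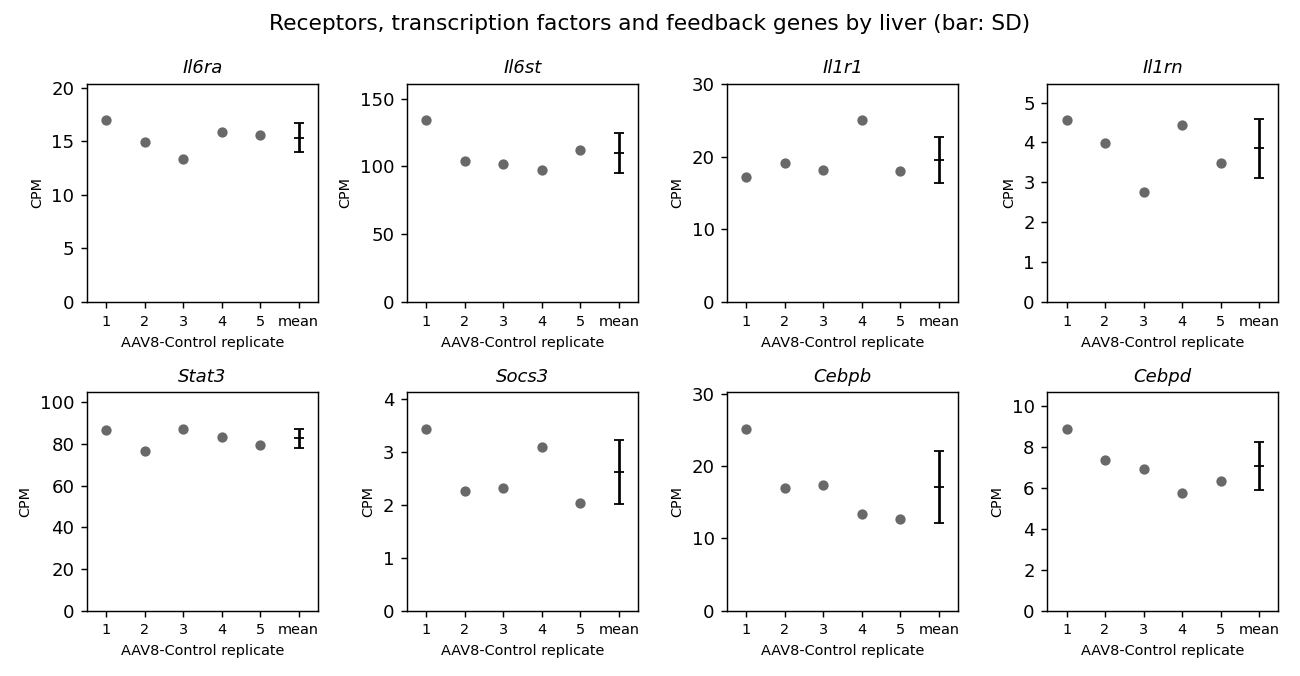
Level in CPM of 8 receptors, transcription factors and feedback genes in the 5 AAV8-Control livers, with 1 point per liver and the mean with its SD at the right of each panel. *Stat3* and *Il6ra* are nearly level, *Cebpb* is highest in replicate 1, and *Il1r1* is highest in replicate 4.

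Counted over all members, the highest of the 5 livers was replicate 4 for 16 members, replicate 3 for 9, replicate 1 for 6, replicate 2 for 2 and replicate 5 for 0. Over all 11041 genes these shares were 16.4%, 15.8%, 37.8%, 12.3% and 17.8%. The 6 members highest in replicate 1 were all regulators, namely *Socs3*, *Il6ra*, *Il6st*, *Cebpb*, *Cebpd* and *Il1rn*. The summed markers of sinusoidal endothelium were highest in that liver too, as were 4 of the 6 alone, with a sum of 194, 142, 172, 98.1 and 139 CPM in replicates 1 to 5 and *Stab2* at 54.3 CPM in replicate 1 and 22.3 CPM in replicate 4, whereas *Lyve1* and *Oit3* were highest in replicate 3. Of the 6 adipocyte markers 4 were highest in replicate 1, *Plin1* in replicate 2 and *Car3* in replicate 5, and 3 averaged 1 CPM or more. *Cfd* was at 9.85, 8.28, 2.79, 1.02 and 1.74 CPM in replicates 1 to 5. *Adipoq*, which averaged 0.459 CPM, was at 1.23 CPM in replicate 1 and 0.182 CPM in replicate 4. The sum of the list, 2066 to 3965 CPM, was nearly all *Car3* and highest in replicate 5. The part of these cells in the order of the regulators was not tested. After scaling by TMM factors, which are set from the bulk of the genes, replicate 4 was highest for 20 members (24.8% of all genes) and replicate 1 for 4 (22.5%), and *Il6ra* and *Il1rn* then peaked in replicate 4. The lowest liver was replicate 1 for 10 members and replicate 5 for 8, against 12.1% and 15.4% of all genes. These counts describe 5 livers, and no test was applied.

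In 16 members (48.5%) the highest liver was at least 1.5 times the lowest, against 25.6% of all genes. Without AAV8-Control replicate 3 this fell to 10 members, against 20.8% of all genes. In 4 members, *Saa1*, *Saa2*, *Saa3* and *Serpina3k*, the highest liver was at least 2 times the lowest, against 8.46%, and without replicate 4 this left *Saa3* and *Serpina3k*, against 5.70%. Without replicate 2 or without replicate 3 it left *Saa1*, *Saa2* and *Saa3*, against 6.63% and 6.71% of all genes. A coefficient of variation over 20% was found in 9 members, against 17.6% of all genes, and in 6 without replicate 3, again against 17.6%. The median was 15.3% for the secreted and other effector members and 16.5% for the regulators.

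**Figure D4:**
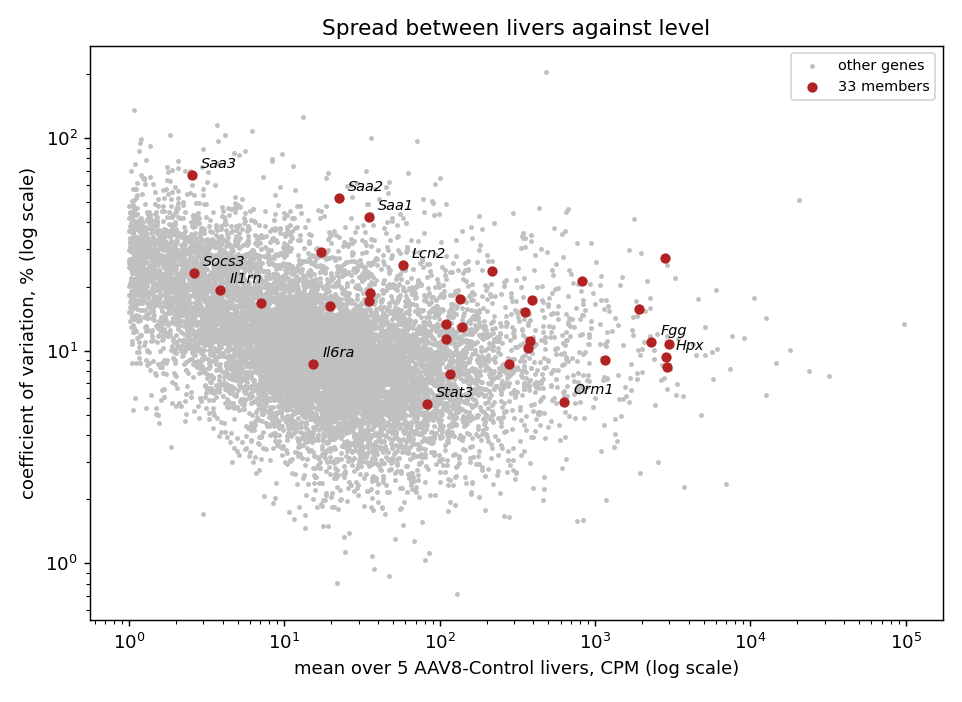
Coefficient of variation over the 5 AAV8-Control livers (y axis, %) against mean level (x axis, CPM), on log axes, for the 33 members in red and the other genes that averaged 1 CPM or more in grey. *Saa1*, *Saa2* and *Lcn2* lie above most genes of similar level, whereas *Stat3*, *Orm1* and *Hpx* lie within the cloud.

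Markers of other cells also differed between livers. Summed Kupffer cell and macrophage markers were at 107 to 215 CPM, with replicate 2 highest, and all 7 averaged 1 CPM or more. Summed neutrophil markers were at 1.498 to 4.17 CPM, with replicate 3 highest and 1 of 9 analysed genes (10 listed) at 1 CPM or more, and T and B lymphocyte markers at 1.75 to 4.62 CPM, with replicate 2 highest and 0 of 9. Stellate cell and fibroblast markers were at 259.9 to 349.7 CPM and cholangiocyte markers at 33.7 to 54.2 CPM, both highest in replicate 2. In that liver *Dcn* made up 53.8% of the former sum and *Spp1* 78.9% of the latter. Of the 8 stellate cell and fibroblast markers 6 were highest in replicate 2, and *Lrat* and *Reln* in replicate 1. Of the 6 cholangiocyte markers 4 were highest in replicate 2, *Epcam* in replicate 1 and *Cldn7* in replicate 4. Summed hepatocyte markers reached 135002 CPM in replicate 4, the liver in which more members peaked than in any other, and 82.7% of that sum was *Alb*. Of the 8 markers 5 were highest in replicate 4, while *Hnf4a* was highest in replicate 1, *Apoa1* in replicate 3 and *Tat* in replicate 5. Their part in the spread was not tested.

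Other genes of the pathway were described in the same livers. Of 24 listed genes of IL-6 family signalling outside the members, 22 were analysed, 18 averaged 1 CPM or more and 6 of these had a highest liver at least 1.5 times the lowest, against 25.6% of all genes. Of the kinases of the receptor complex, *Jak1* averaged 87.8 ± 2.93 CPM, *Jak2* 13.7 ± 0.80996 CPM and *Tyk2* 20.9 ± 2.66 CPM (SD, n = 5). The immediate early gene *Junb* averaged 14.3 ± 3.76 CPM (SD, n = 5). Of 31 genes of interleukin-1, TNF and NF-kB signalling, 28 averaged 1 CPM or more and 8 had such a ratio, against the same 25.6%. *Il1b* itself was at 0.725 to 2.67 CPM and *Tab2*, an adaptor of this pathway, at 76.7 to 89.7 CPM. *Il6* was not analysed here.

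Among 28 other positive acute-phase proteins analysed (29 listed), 24 averaged 100 CPM or more and the median coefficient of variation was 10.3%. The complement component *C3* averaged 5738 ± 419.9 CPM (SD, n = 5). The metallothioneins *Mt1* and *Mt2*, which bind zinc and copper, were at 363 to 598 CPM and 196 to 456 CPM. Of 13 negative acute-phase proteins, whose plasma levels fall in inflammation, all averaged 100 CPM or more, with a median coefficient of variation of 10.2%. *Apoa2* averaged 6979 ± 165 CPM and *Ttr*, transthyretin, 7609 ± 888 CPM (SD, n = 5), while *Apoa1* ranged from 713 to 1278 CPM. Of the *Serpina3* genes outside the members, *Serpina3g* and *Serpina3f* averaged 1 CPM or more, at 2.54 to 6.23 CPM and 0.769 to 3.06 CPM.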

How the data were processed

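RNA-seq libraries of 5 AAV8-Control *db/db* livers were analysed, grouped by their titles. The other libraries of the series are not reported here. Per the labels and the paper's methods, single reads were aligned with STAR 2.0.4b to GRCm38.p2 (Ensembl release 76) and uniquely aligned reads were counted on genes with featureCounts 1.4.5. The authors deposited CPM, a gene's reads scaled to the total counted on genes, in 15236 lines for 15126 genes, with 110 repeated lines that held the same values and were used once. Each CPM value was divided by the CPM of 1 read (0.0282 to 0.0513), and 100% of the values came out whole within 0.01, which recovered the reads. Replicates are separate labelled libraries, and the labels do not state that each is a separate animal.

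Levels were summarised as the mean, SD and coefficient of variation over the livers for genes that averaged 1 CPM or more, and on log2(CPM + 1), in Python 3.11.15 with pandas. The counting part of the spread is that of a Poisson count at the mean number of reads, and it covers counting error only. No test between groups was run, and with 5 livers no correlation across livers was computed. Shares of 50-base stretches in common came from GENCODE transcripts, as did exon lengths, and promoters from RefSeq. Exon length joins all exons annotated to a gene, over all its transcripts, and levels per kb depend on that annotation. The computations were tested on simulated data.

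The members and lists were chosen with earlier results of these data known, and the measures of spread and their alternatives were chosen after the data were seen. Values in every liver were given for *Saa1*, *Saa2*, *Lcn2*, *Socs3*, *Stat3*, *Il6ra* and *Il6st* by rule, and for further members, and genes of other lists named, after their values were seen. The alternatives were scaling by TMM factors (edgeR 4.0.16) or size factors (DESeq2 1.42.0 in R 4.3.3), a pseudocount of 0.1, a filter of 10 reads in every library, and leaving out each liver.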

Additional observations from a re-analysis of the deposited data

Results flagged for a closer look

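For each of the 33 members, the 5 livers were checked for one far from the others, by the gap to its nearest neighbour as a share of the whole range. Only *Il1r1* held such a liver, with 25.04 CPM in AAV8-Control replicate 4 against 17.1 to 19.1 CPM in the others. Chance gives about 1 in 20 groups. It rested on 334 to 687 reads per library.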

How the results depend on the processing

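No paired analysis was possible because no groups were compared here. The mean level of each of the 33 members moved by at most 1.44% with TMM factors and 1.15% with size factors. These moves were all less than 1 SD between livers. When a liver was left out, the mean level moved by at most 26.3%, the largest without AAV8-Control replicate 4. Leaving out a liver always moves a mean by less than 1 SD, whatever the values, so that limit could not test the levels there. With each liver left out, the median coefficient of variation was 11.96% to 17.4% for members and 9.34% to 10.8% for all genes (11.96% and 10.3% without AAV8-Control replicate 3), and the median SD on the log2 scale was 0.18 to 0.23 for members, against 0.21 with all livers, and 0.12 to 0.14 for all genes, against 0.14. Members whose highest liver was at least 1.5 times the lowest numbered 10 to 15, against 16, with 10 without AAV8-Control replicate 3, against 20.8% of all genes. With a pseudocount of 0.1 the median SD on the log2 scale was 0.15 for all genes and 0.22 for members. Scaling kept the highest liver of 29 of the 33 members, and *Orm1*, *Hpx*, *Il6ra* and *Il1rn* then peaked in replicate 4. Counts of 17 to 142 reads for *Saa3* and 42 to 85 for *Socs3* limit their precision. The cause was not tested.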
